A study of Mus musculus with 12 samples.

Results

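The miRNAs described here are both arms, 5p and 3p, of 5 hairpins that lie together in the chloride channel gene Clcn5 on the mouse X chromosome, namely miR-532, miR-188, miR-362, miR-501 and miR-500. They are named mmu-miR-532-5p, mmu-miR-532-3p, mmu-miR-188-5p, mmu-miR-188-3p, mmu-miR-362-5p, mmu-miR-362-3p, mmu-miR-501-5p, mmu-miR-501-3p, mmu-miR-500-5p and mmu-miR-500-3p in the count table, and the species prefix is left out below. These 10 mature miRNAs were grouped by their genomic position, and the group was chosen with earlier results of these data known. All 10 were found among the 1966 miRNAs of the table. The libraries were prepared from quadriceps muscle of wild-type mice (genotype C57BL/6J) aged 1 day (P1), 5 days (P5), 14 days (P14) or 90 days (P90, adult), with 3 mice per age and 12 libraries in all. No genotype or treatment differed between the ages, and the study made this time course to learn how many miRNAs that are altered without Mbnl1, a splicing factor, also change as muscle develops. RNA came from whole muscle, so fewer cells of a type and less of a miRNA per cell cannot be told apart.

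A miRNA is cut from a hairpin in a longer primary transcript, and each hairpin can yield a mature strand from its 5' side (5p) and from its 3' side (3p). Hairpins within an intron are commonly transcribed together with the host gene, and those lying close to each other can share a primary transcript, while the amount of each mature strand also depends on processing and on strand stability. Target mRNAs are recognised mainly through the seed, the bases near the 5' end of the mature strand. Clcn5 encodes ClC-5, a chloride/proton exchanger of endosomes known for its role in the kidney. In muscle, miR-501 has been described in activated satellite cells, the stem cells of the tissue, and miR-188 is known from studies of bone marrow stromal cells.

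On GRCm38.p6 the 5 hairpins covered 10.82 kb of chromosome X (chrX:7237683-7248497, minus strand), inside Clcn5 (chrX:7153810-7319358). In the direction of transcription miR-532 (chrX:7248402-7248497) came first, and miR-188 (chrX:7247989-7248056) followed after 345 bases. MiR-362 (chrX:7241982-7242046) lay 5942 bases further on, miR-501 (chrX:7241243-7241351) followed 630 bases later, and miR-500 (chrX:7237683-7237774) lay another 3468 bases away. In the GENCODE annotation of GRCm39, all 5 hairpins were intronic in the 8 of 10 Clcn5 transcripts that spanned them and exonic in none, and the intron was 43993 to 103648 bases long. No other miRNA hairpin of the RefSeq table was found within 50000 bases, and none lay on the opposite strand.

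The mature sequences are shown because the members resemble each other in their seeds. Bases 2 to 8, the seed, are in capitals, the sequences run 5' to 3', and they were taken from RefSeq on GRCm38.p6, which held 9 of the 10 members; miR-532-5p is named only.
miR-532-3p: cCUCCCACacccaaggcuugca
miR-188-5p: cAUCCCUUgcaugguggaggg
miR-188-3p: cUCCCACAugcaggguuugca
miR-362-5p: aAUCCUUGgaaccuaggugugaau
miR-362-3p: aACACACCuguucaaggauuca
miR-501-5p: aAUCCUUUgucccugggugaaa
miR-501-3p: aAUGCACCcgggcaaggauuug
miR-500-5p: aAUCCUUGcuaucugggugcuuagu
miR-500-3p: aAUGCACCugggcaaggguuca

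MiR-501-3p and miR-500-3p had the same seed, AUGCACC, and were identical at 18 of 22 positions (81.8%). Counted from the 5' end, the changes from miR-501-3p to miR-500-3p were C9U, A18G, U21C and G22A. MiR-362-5p and miR-500-5p shared the seed AUCCUUG, and the seed of miR-501-5p, AUCCUUU, differed from it by the substitution G8U from miR-362-5p to miR-501-5p. Outside the cluster, miR-362-3p shared its seed with miR-329-3p, and miR-188-5p shared its seed with miR-7061-3p. Each of the 9 sequences matched the GRCm39 genome exactly once, at the X chromosome. A read of only their first 18 bases would also match once, except for miR-532-3p, whose first 18 bases occurred 6 times in the genome. The exact sequences therefore separate miR-501-3p from miR-500-3p, but how the authors' alignment and counting treated reads with mismatches or several matches is not given in the sources used here.

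The P1 libraries held 25472336 to 26783448 counts each, those of P5 30648679 to 33771032, those of P14 20363495 to 24046074 and those of P90 43776307 to 53126984. Levels below are CPM, the counts of a library brought to a common total, after TMM scaling, which assumes that most miRNAs keep their level between libraries. Between P1 and P90, 272 of 809 miRNAs tested were not called different, so that assumption is doubtful there. The TMM factors were 1.24 to 1.72 at P1, P5 and P14, but 0.247 to 0.384 at P90, where 6 skeletal muscle miRNAs took 55.9% to 58.6% of all counts, against 24.7% to 34.3% at the younger ages. The 6 comprised 3 that rose from P1 to P90, 2 that fell and miR-133b-3p, which was not called (log2 change 0.28, edgeR adjusted P (Padj) = 0.234). The P14 and P90 libraries stood apart from the younger ones in base composition, in opposite directions. For each 10 points of GC content the log2 level, relative to the mean of each miRNA, changed by 0.377 to 0.561 in the P14 libraries and by -0.591 to -0.380 in the P90 libraries, compared with -0.0123 to 0.0749 at P1 and P5. The part of muscle composition and of GC content in the results below was not tested, apart from the fits named beside them.

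The cluster as a whole kept a similar level through the first 2 weeks and was far lower in adult muscle. Its 10 members together held 60945 to 69221 counts per P1 library, 64522 to 68938 per P5 library, 45064 to 75012 per P14 library and 2063 to 3706 per P90 library. As a share of all counts this was 0.247% ± 0.0114 (SD, n = 3) at P1, 0.206% ± 0.00366 at P5, 0.266% ± 0.0492 at P14 and 0.00608% ± 0.00217 in adult muscle. In normalized CPM the sum was 1569 ± 109, 1616 ± 61.8, 1713 ± 137 and 183 ± 33.7 in the same order. In CPM the first 3 ages overlapped, while as shares of all counts the P5 libraries lay under those of P1 and P14. Every P90 library lay under all the others in both measures. All 10 members passed the filter on low counts, and all 10 were called across the 4 ages (edgeR Padj from 9.61e-11 for miR-501-3p to 0.000195 for miR-188-3p). Of all 809 miRNAs tested, 72.4% were called.

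**Figure D1:**
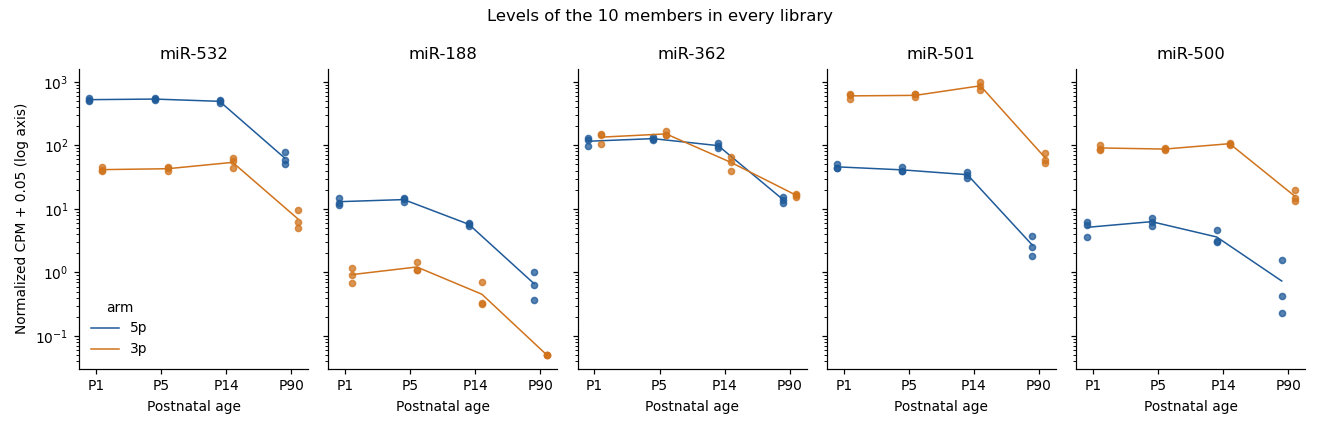
Normalized CPM of the 10 members by postnatal age, with a panel for each hairpin, a logarithmic vertical axis to which 0.05 CPM was added, a point for each library and lines through the means of the 3 libraries (blue, 5p; orange, 3p). For each strand the P90 points lie below those of every other age; the lowest points, of miR-188-3p at P90, stand for 0 counts.

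Among the members, miR-501-3p and miR-532-5p were the abundant strands. MiR-501-3p reached 634, 540 and 624 CPM in the P1 libraries, 632, 631 and 571 CPM at P5, 858, 984 and 753 CPM at P14, and 75.6, 53.4 and 59.1 CPM at P90. The P14 libraries were thus the highest, with no overlap with any other age. MiR-532-5p measured 513, 504 and 551 CPM at P1, 548, 542 and 512 CPM at P5, 505, 517 and 455 CPM at P14, and 79.9, 51.2 and 58.0 CPM at P90. It overlapped between P1, P5 and P14 and separated only at P90. By mean CPM among the 809 miRNAs tested, miR-501-3p ranked 101 at P1 and 162 at P90, and miR-532-5p ranked 110 and 161.

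The middle range was formed by the arms of miR-362 and by miR-500-3p, miR-501-5p and miR-532-3p. MiR-362-3p measured 145, 105 and 153 CPM at P1 and 143, 167 and 143 CPM at P5, then 55.2, 39.3 and 66.4 CPM at P14 and 15.5, 16.6 and 16.8 CPM at P90. It fell in 2 steps, without overlap at either. Its partner strand miR-362-5p measured 131, 97.2 and 119 CPM at P1, 133, 122 and 127 CPM at P5, 110, 95.9 and 90.6 CPM at P14 and 15.6, 12.2 and 13.8 CPM at P90. MiR-500-3p had 83.5, 101 and 88.1 CPM at P1, 83.7, 91.7 and 86.3 CPM at P5, 106, 102 and 110 CPM at P14 and 19.5, 14.6 and 13.3 CPM at P90. The P14 values of miR-500-3p were the highest of the 4 ages, by a margin of less than 1 CPM over the highest P1 library.

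The weaker arms of miR-501 and miR-532 were close to each other in level. MiR-501-5p measured 43.5, 43.2 and 50.6 CPM at P1, 45.2, 39.1 and 38.8 CPM at P5, 30.5, 38.2 and 34.7 CPM at P14 and 3.63, 1.75 and 2.50 CPM at P90. MiR-532-3p measured 44.8, 39.0 and 40.4 CPM at P1, 45.1, 39.9 and 43.3 CPM at P5, 43.3, 62.0 and 56.3 CPM at P14 and 9.57, 5.04 and 6.25 CPM at P90. At P1 these 2 strands overlapped (45.8 ± 4.15 and 41.4 ± 3.04 CPM), whereas at P14 and at P90 every library of miR-532-3p was above every library of miR-501-5p.

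MiR-188 and miR-500-5p gave few reads. MiR-188-5p had 471, 494 and 625 counts at P1, 555, 533 and 658 at P5, 209, 241 and 151 at P14 and 16, 6 and 7 in adult muscle. MiR-188-3p had 43, 27 and 36 counts at P1, 41, 59 and 46 at P5, 10, 11 and 19 at P14 and none in any P90 library. MiR-500-5p had 207, 153 and 259 counts at P1, 242, 225 and 316 at P5, 113, 187 and 85 at P14 and 3, 7 and 18 in adult muscle. The adult values of these 3 strands thus rest on at most 18 reads per library, and a count of 0 allows up to 3 counts, or 0.159 to 0.250 CPM in the P90 libraries. This limit covers counting error only.

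Between P1 and P5 no member was called in either direction by edgeR, none had an unadjusted P under 0.05, and DESeq2 also called none. Over all miRNAs tested, 2.72% were called higher and 1.73% lower. The members' log2 changes ran from -0.16 (SE 0.20) for miR-501-5p to 0.42 (SE 0.53) for miR-188-3p, with a median of 0.08 beside 0.01 over all miRNAs tested. The libraries of P1 and P5 overlapped for all 10 members.

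Between P5 and P14 few members were called, in shares near those over all miRNAs tested. The 1 rise that was called did not hold in all alternative fits. MiR-501-3p, the strand with the most counts, rose by 0.50 on the log2 scale (SE 0.15, Padj = 0.0141), from 611 ± 35.03 to 865 ± 116 CPM. MiR-362-3p fell by 1.49 (SE 0.20, Padj = 1.9e-05), from 151 ± 14.0 to 53.7 ± 13.6 CPM, which was 2.82-fold lower. MiR-188-5p fell by 1.30 (SE 0.24, Padj = 0.000357), from 13.9 ± 1.07 to 5.66 ± 0.342 CPM, and miR-188-3p fell by 1.54 (SE 0.56, Padj = 0.0398), from 1.17 ± 0.214 to 0.403 ± 0.226 CPM. Thus 1 member was called higher, against 18.0% of all miRNAs tested, and 3 were called lower, against 26.3%. The other 6 were not called and lay between a log2 change of -0.81 (SE 0.41) for miR-500-5p and 0.33 (SE 0.21) for miR-532-3p.

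Libraries of P5 and P14 did not overlap for 8 members, 6 of them lower (31.4% of all miRNAs) and 2 higher (23.0%) at P14. The members' median log2 change was -0.31, beside -0.07 over all miRNAs tested. MiR-362-3p and miR-188-5p were called lower in all 20 alternative fits of this comparison. The call of miR-188-3p was lost when P1 replicate 1 or 3, any P5 library, or P14 replicate 1 or 2 was left out (Padj 0.0539 to 0.137), and also with library totals alone (Padj = 0.0646), with upper-quartile factors (Padj = 0.0919) and without the filter on low counts (Padj = 0.0825). It held in 9 of 20 alternative fits. That of miR-501-3p was lost without P5 replicate 3 (log2 change 0.42, Padj = 0.0938), without P14 replicate 1 (0.48, Padj = 0.0547) and without P14 replicate 2 (0.37, Padj = 0.0915). After the trend over GC content was removed within each library, the change of miR-501-3p, whose GC content is 54.5%, was 0.22 (Padj = 0.213). In the same fit miR-362-3p (GC content 40.9%) fell by 1.21 (Padj = 5.56e-05) and miR-188-5p (61.9%) fell by 1.89 (Padj = 7.01e-06).

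Set against P1, the P14 levels gave a similar picture, although this comparison and the preceding one use the same P14 libraries. MiR-501-3p was higher by 0.53 (SE 0.15, Padj = 0.00909), miR-362-3p lower with a log2 change of -1.32 (SE 0.20, Padj = 4.39e-05) and miR-188-5p lower with -1.19 (SE 0.24, Padj = 0.000625). This made 1 member called higher (20.3% of all miRNAs tested) and 2 called lower (28.8%). The libraries of the 2 ages did not overlap for 2 members that were higher (25.7% of all miRNAs), miR-501-3p and miR-500-3p, and 3 that were lower (33.5%), miR-188-5p, miR-362-3p and miR-501-5p. The call of miR-501-3p was lost without P1 replicate 2 (0.40, Padj = 0.0822), without P14 replicate 2 (0.38, Padj = 0.0710) and with the GC trend removed (0.26, Padj = 0.126). MiR-188-3p was not called here (-1.12, SE 0.56, Padj = 0.117). It was called in 2 of 20 alternative fits, without P14 replicate 3 (-1.72, Padj = 0.0302) and with the GC trend removed (-1.48, Padj = 0.0483).

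Between P14 and P90 all 10 members were called lower, and none overlapped between the ages. Of all miRNAs tested, 36.7% were called lower and 22.4% higher, while 37.1% lay lower and 24.1% higher without overlap. MiR-501-3p dropped by 3.79 on the log2 scale (SE 0.17, Padj = 1.45e-11), from 865 ± 116 to 62.7 ± 11.5 CPM, which was 13.8-fold. MiR-532-5p dropped by 2.97 (SE 0.17, Padj = 2.09e-10), from 492 ± 32.8 to 63.0 ± 15.0 CPM, or 7.81-fold. MiR-362-3p, which had already fallen by P14, changed by -1.72 (SE 0.20, Padj = 2.04e-06), or 3.29-fold.

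The remaining members fell by values between these. The log2 changes were -2.95 (SE 0.23) for miR-532-3p, -3.20 (SE 0.30) for miR-188-5p, -2.83 (SE 0.17) for miR-362-5p, -3.71 (SE 0.24) for miR-501-5p, -2.50 (SE 0.51) for miR-500-5p and -2.74 (SE 0.17) for miR-500-3p. With the GC trend removed, the log2 changes of the members richest in GC were smaller, -1.50 for miR-532-3p and -1.91 for miR-188-5p, those of miR-501-3p and miR-500-3p were -3.17 and -2.13, and those of the arms of miR-362 were -3.41 for 5p and -2.36 for 3p; all kept their calls. MiR-188-3p had 0 counts in adult muscle. With 3 counts per library taken as the floor, it was at least 2.06-fold lower at P90 than at P14 under TMM scaling. This bound moves with the scaling: the members' median change was -2.96 with TMM and -1.38 with upper-quartile factors. Bounds under other scalings were not computed. With miR-188-3p set to its TMM bound, the median of the 10 was -2.89, beside -0.55 over all miRNAs tested. The 2 strands with the seed AUGCACC, miR-501-3p and miR-500-3p, thus had changes of -3.79 and -2.74, more than 1 log2 unit apart; the difference between them was not tested.

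**Figure D2:**
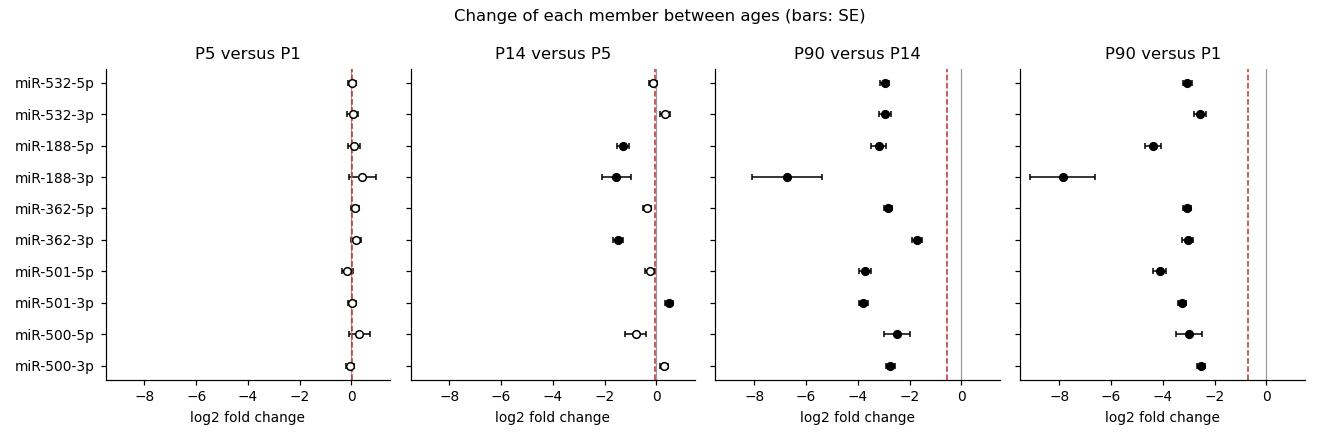
Log2 fold change of each member in 4 comparisons of ages, with bars of 1 SE, filled points for members with edgeR Padj under 0.05, open points for the others, and a dashed red line at the median of all 809 miRNAs tested. All 10 points are filled and left of the dashed line in P90 versus P14 and P90 versus P1. None is filled in P5 versus P1. In the 2 panels with P90, the fitted points of miR-188-3p rest on 0 adult counts and are not bounds. With TMM scaling the counts set only a smallest fall, a log2 change of -1.04 or lower against P14 and -2.16 or lower against P1. These bounds move with the scaling.

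Adult muscle held less of every member than newborn muscle. All 10 were called lower at P90 than at P1, and the libraries of the 2 ages overlapped for none of them. Of all miRNAs tested, 41.2% were called lower and 25.2% higher, while 44.3% lay lower and 28.3% higher without overlap. The P90 libraries are shared with the preceding comparison and the P1 libraries with the earlier ones. Levels fell from 523 ± 24.7 to 63.0 ± 15.0 CPM for miR-532-5p (8.29-fold, Padj = 1.04e-10), from 600 ± 51.5 to 62.7 ± 11.5 CPM for miR-501-3p (9.56-fold, Padj = 4.77e-11) and from 45.8 ± 4.15 to 2.63 ± 0.945 CPM for miR-501-5p (17.4-fold, Padj = 2.6e-10). MiR-188-5p, from 12.9 ± 1.79 to 0.618 ± 0.318 CPM, was 21.0-fold lower (log2 change -4.39, Padj = 2.05e-09); with the GC trend removed its log2 change was -3.66, and that of miR-501-5p was -4.25. With TMM scaling miR-188-3p was at least 4.46-fold lower, and this bound too moves with the scaling.

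Smaller differences were measured for miR-500-3p, at 5.74-fold (log2 change -2.52, SE 0.17, Padj = 1.66e-09), and for miR-532-3p, at 5.95-fold (-2.57, SE 0.23, Padj = 4.74e-08). With the GC trend removed these were -2.17 and -1.75. The arms of miR-362 changed over the whole interval by -3.06 (SE 0.17) for 5p and -3.04 (SE 0.21) for 3p. The 3p strand covered part of this distance between P5 and P14. The 5p strand was not called at that step (Padj = 0.0706), but it was in 5 of 20 alternative fits, among them DESeq2 (-0.43, Padj = 0.0152) and RLE factors (-0.43, Padj = 0.0352). MiR-500-5p (mmu-miR-500-5p) fell by 3.00 (SE 0.51, Padj = 7.12e-05), with the widest error of the members that had reads at P90. Without P90 replicate 3, which held 18 of its adult reads, the change was -4.15 (Padj = 1.16e-06), and against P14 it was -3.60 in place of -2.50. The median of the 10 members was -3.05 with miR-188-3p at its bound, beside -0.72 over all miRNAs tested.

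The size of the adult difference depended on how the libraries were scaled. The members' median log2 change from P1 to P90 was -3.06 with TMM factors, -2.72 with RLE factors, -5.32 with library totals alone and -1.17 with upper-quartile factors. The median of all miRNAs tested was -0.72, -0.37, -2.97 and 1.177 in the same order; a scaling moves all miRNAs alike, so the distance between the 2 medians is fixed by construction. All 10 were called lower at P90 than at P1 under all 4 scalings. Against P14, the upper-quartile factors left 8 members called lower, and miR-362-3p (-0.14, Padj = 0.563) and miR-500-5p (-0.97, Padj = 0.0928) were no longer called.

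**Figure D3:**
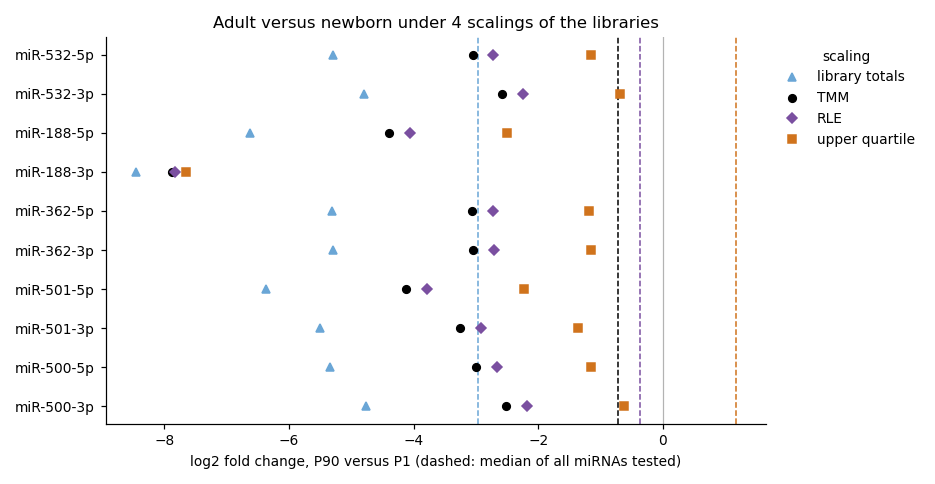
Log2 fold change of each member from P1 to P90 under 4 scalings of the libraries (marker shapes and colours), with dashed lines of the same colours at the median of all miRNAs tested. Changing the scaling shifts the members and the dashed lines together, and every member lies below 0 and to the left of its dashed line under each scaling.

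The make-up of the cluster at P14 differed from that of the other ages, mainly in miR-501 and miR-362. Shares of the cluster's own counts do not depend on the scaling of the libraries. MiR-501 supplied 41.1% ± 0.812 of them at P1, 40.3% ± 0.796 at P5, 52.3% ± 2.70 at P14 and 35.8% ± 0.244 in adult muscle (SD, n = 3). MiR-362 supplied 15.9% ± 1.66, 17.2% ± 0.458, 8.97% ± 1.44 and 16.8% ± 2.398. At P14 miR-501 was thus above, and miR-362 below, all libraries of the other ages, and at P90 the share of miR-362 overlapped with P1 and P5 while that of miR-501 lay under both. Shares can still differ with the GC content of the strands, in which the P14 and P90 libraries stood apart. The GC content is 54.5% for miR-501-3p, and 41.7% and 40.9% for the 5p and 3p arms of miR-362. The part of GC content in these shares was not tested.

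MiR-532 supplied 36.0% ± 1.51, 35.7% ± 0.421, 31.9% ± 0.576 and 38.0% ± 2.29 at P1, P5, P14 and P90. MiR-500 gave 6.16% ± 0.944, 5.79% ± 0.312, 6.44% ± 0.729 and 9.06% ± 0.505, and its P90 libraries were above all others. MiR-188, the smallest source, gave 0.877% ± 0.0680, 0.937% ± 0.0863, 0.355% ± 0.0209 and 0.325% ± 0.114, so that it was lower at P14 and P90 than at P1 and P5 without overlap. The order of the hairpins by their share was the same at all 4 ages, except that miR-532 was ahead of miR-501 at P90. As shares of a fixed sum these values move against each other, and no test was made on them.

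**Figure D4:**
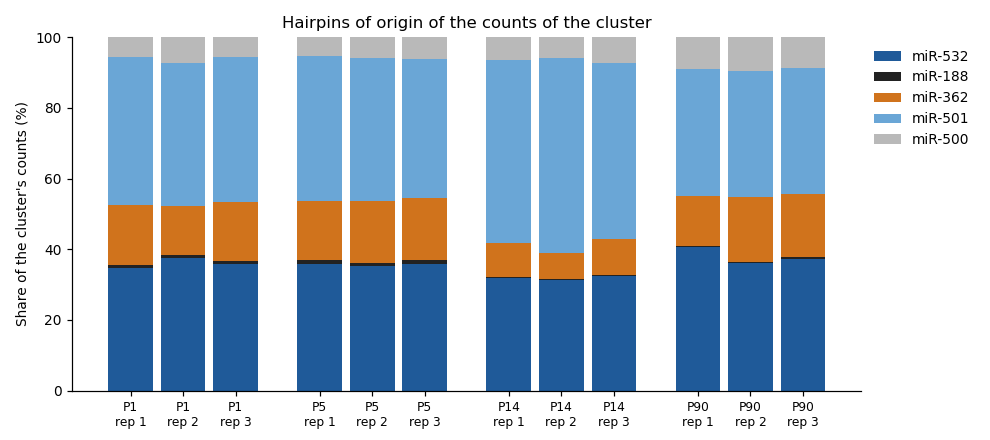
Share of the cluster's counts that came from each of the 5 hairpins (stacked colours, percent of the summed counts of the 10 members) in each of the 12 libraries, ordered by age. In the P14 bars miR-501 takes 49.99% to 55.3% and miR-362 7.31% to 9.97%, compared with 39.4% to 42.0% and 14.0% to 17.5% in the P1 and P5 bars.

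The balance of the strands within a hairpin is a further quantity that does not depend on the scaling. It was tested across the 4 ages with an exact permutation test of the log2 ratio of the 5p to the 3p count (2-sided, 15400 partitions of the libraries, smallest possible P = 6.49e-05, adjusted over 250 hairpins with both arms tested). Of the 250 hairpins, 49.6% were called. In the cluster, miR-501 (exact P = 0.00305, adjusted 0.0109) and miR-362 (exact P = 0.0175, adjusted 0.0375) were called. MiR-532 was not (exact P = 0.0351, adjusted 0.0655), and neither were miR-188 (exact P = 0.657, adjusted 0.711) and miR-500 (exact P = 0.404, adjusted 0.490).

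In miR-501 the 3p strand was dominant, with 13.096 reads for each 5p read at P1 and 14.9 at P5 (geometric means), which became 25.1 at P14 and 24.4 at P90. On the log2 scale the 5p to 3p ratio was -3.71 ± 0.13 at P1, -3.90 ± 0.11 at P5, -4.65 ± 0.19 at P14 and -4.61 ± 0.28 in adult muscle (SD, n = 3), and the P14 and P90 libraries lay below all libraries of P1 and P5. This call was kept when each library was left out in turn (adjusted exact P 0.00682 to 0.0214).

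In miR-362 the strands were near balance at P1 (ratio 0.867), P5 (0.844) and P90 (0.847), whereas at P14 the 5p strand had 1.99, 2.44 and 1.36 reads for each 3p read. The P14 libraries lay above all others. The call of miR-362 was lost without any 1 of the P1 or P5 libraries, without P90 replicate 2 and without P90 replicate 3 (adjusted exact P 0.0546 to 0.0629). The GC contents of its strands are 41.7% for 5p and 40.9% for 3p, and those of miR-501 are 45.5% for 5p and 54.5% for 3p. The part of GC content in the arm ratios was not tested.

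In miR-532 the 5p strand had 12.6 reads for each 3p read at P1 and 12.5 at P5, against 9.22 at P14 and 9.19 at P90. The P14 libraries, at 11.6, 8.34 and 8.08, lay below those of P5 but overlapped with P1, where the lowest library had 11.5. For miR-500 the 3p strand led by 18.4, 14.0, 30.2 and 31.0 reads for each 5p read, but the 5p strand had as few as 3 reads at P90, where the log2 ratio of the libraries ran from -6.55 to -3.12. Without P90 replicate 3, in which this strand had 18 reads, the ratio of miR-500 was called (adjusted exact P = 0.0225). The miR-188 ratio at P90 was formed from 0 reads of the 3p strand and rests on the 0.5 counts added to each strand.

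**Figure D5:**
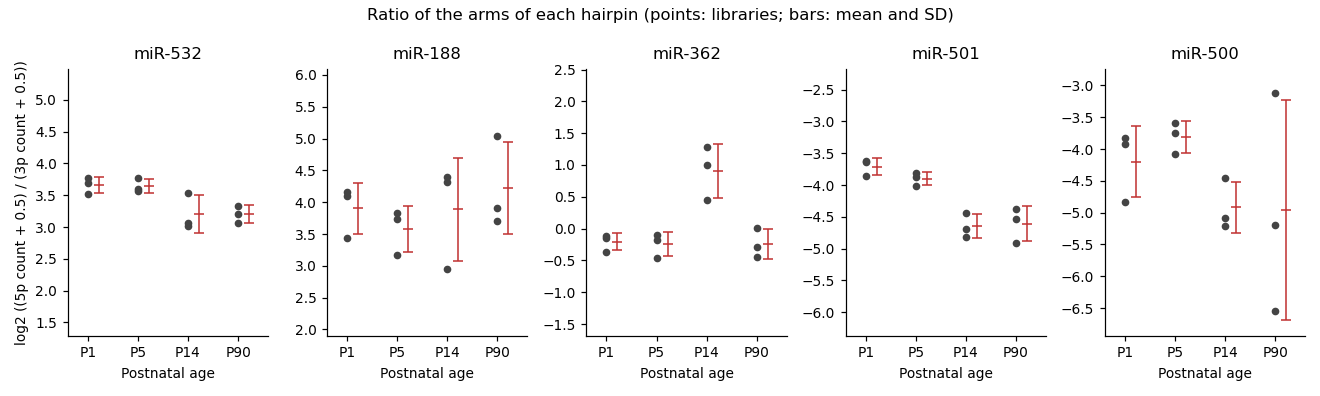
Log2 ratio of the 5p to the 3p count (0.5 added to each) of the 5 hairpins by age, with a black point for each library and red bars for the mean and SD; each panel spans the same range on its own level. MiR-362 is higher at P14 alone, and miR-501 is lower at P14 and P90 than before. The points of miR-500 at P90 and of miR-188 at P14 and P90 are widely spread.

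The seed partners outside the cluster did not add to this pool evenly. MiR-329-3p, which shares the seed ACACACC with miR-362-3p, had 17563 to 21597 counts in the P1 libraries, 18879 to 19776 in those of P5, 12647 to 18548 in those of P14 and 200 to 361 in those of P90. It was not called between P5 and P14 (log2 change -0.08, Padj = 0.721), where miR-362-3p fell by 1.49, and it fell by 4.69 (Padj = 6.21e-12) between P14 and P90. MiR-7061-3p, which has the seed of miR-188-5p, had at most 3 counts in any library and was not tested.

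The members followed each other closely over the 12 libraries, which mainly share the drop at P90. Pearson's r between the log2 level of a member and the log2 sum of the other 9 ran from 0.818 for miR-188-3p and 0.842 for miR-362-3p to 0.990 for miR-500-3p and 0.995 for miR-532-5p. Among 204 other miRNAs whose mean reached 100 CPM, the 5 whose log2 levels were most like the sum of the cluster were miR-434-3p, miR-494-3p and miR-127-3p (r = 0.998 each), followed by miR-668-3p and miR-483-5p (also 0.998). They too were much lower at P90 than before; miR-434-3p averaged 12153 CPM at P1, 12964 CPM at P5, 13501 CPM at P14 and 479 CPM in the adult. These correlations describe 12 points grouped by age and scaled together, and carry no test.

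A second X-linked cluster, that of miR-322, miR-503, miR-351, miR-542 and miR-450, was set beside the Clcn5 cluster by its counts of calls. Its 13 members were all tested. Between P5 and P14, 9 of the 13 were called lower and 1 higher, with a median log2 change of -1.20, compared with 3 lower and 1 higher of 10 and a median of -0.31 in the Clcn5 cluster. From P14 to P90, 12 of 13 were lower (median -2.32), and from P1 to P90 all 13 (median -4.03). Over all miRNAs tested, the shares called lower in these comparisons were 26.3%, 36.7% and 41.2% in the same order. The share called higher at P14 than at P5 was 18.0%. The counts of the Clcn5 cluster amounted to 13.8% to 16.2% of those of the miR-322 cluster in P1 libraries, 16.4% to 18.06% in P5 libraries, 29.9% to 33.8% in P14 libraries and 26.9% to 44.0% in P90 libraries. This ratio is taken within each library, and its P14 and P90 values lay above those of P1 and P5 in all libraries.

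Markers of other cell types were measured in the same libraries. Between P14 and P90, where all 10 members fell, 6 of 6 blood cell miRNAs and 2 of 2 endothelial miRNAs were called higher in normalized CPM. Of 2 smooth muscle miRNAs 1 was called higher, of 4 neuronal miRNAs 1 was called lower, and of 5 epithelial miRNAs 2 were called higher and 1 lower. The shares called over all miRNAs tested were 22.4% higher and 36.7% lower. Summed levels at P14 and P90 were 365 to 438 and 619 to 786 CPM for blood cells, 7438 to 8591 and 9661 to 12990 CPM for endothelium, 20674 to 25638 and 57060 to 73287 CPM for smooth muscle, 2132 to 2362 and 1107 to 1342 CPM for neurons, and 23.1 to 43.7 and 27.7 to 30.9 CPM for epithelium. As shares of all counts, without TMM scaling, all 5 lists were lower at P90, as the cluster was. The ranges at P14 and at P90 were 0.0540% to 0.0661% and 0.0153% to 0.0279% for blood cells, 1.202% to 1.30% and 0.321% to 0.452% for endothelium, 3.49% to 3.87% and 1.81% to 2.42% for smooth muscle, 0.332% to 0.368% and 0.0326% to 0.0515% for neurons, and 0.00399% to 0.00614% and 0.000751% to 0.00110% for epithelium. No listed marker was at 0 in all libraries of an age. From P5 to P14, the step at which miR-362-3p and miR-188-5p fell, 4 of 6 blood cell and 3 of 5 epithelial miRNAs were called lower, 1 blood cell miRNA was called higher, 1 endothelial miRNA rose and the other fell, 1 smooth muscle miRNA rose and no neuronal miRNA was called. At that step 18.0% of all miRNAs tested were called higher and 26.3% lower. The part of these markers in the results was not tested.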

How the data were processed

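Small RNA libraries were made from 200 ng of total RNA of mouse quadriceps with a commercial small RNA kit. Per the study's methods and the submitters' processing notes, the authors selected reads of 10 to 35 nt with cutadapt 1.18, aligned them to GRCm38 with Bowtie2 2.4.1 and counted them with featureCounts 2.0.1 on miRBase release 22; the notes also name DESeq2 1.30.1. The deposited values are raw counts per mature miRNA with no normalization; options for strand and multiple matches are not given in the sources used here. Reads carried no molecular identifiers in these counts, so limits on a count of 0 cover counting error only.

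Groups came from the sample titles. Replicates differed by a chi-square of 179 to 1195 per degree of freedom, so all 12 libraries were kept. In R 4.3.3, edgeR 4.0.16 (filterByExpr, TMM factors, 1 mean per age over all 12 libraries, quasi-likelihood F-tests, 2-sided) was applied to the 809 miRNAs that passed the filter, with Benjamini-Hochberg adjustment over all of them; Padj under 0.05 was a call. SE were derived from the F statistic. Ratios of arms were tested by exact permutation with 0.5 counts added to each arm (scipy and numpy). Scripts were tested on simulated data, which for the arm ratios were drawn from a normal distribution and were not counts. A mean at 0 was set against a floor of 3 counts per library.

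MiRNAs named are the 10 members, miRNAs sharing bases 2 to 8 with them, miRNAs within 50000 bases, and the 5 non-members of at least 100 CPM most like the members' sum. Lists of markers for skeletal muscle, blood cells, endothelium, smooth muscle, neurons and epithelium and the miR-322 cluster list were given by counts. Members and lists were chosen with earlier results of these data known. Mature sequences were matched for 1675 of 1966 miRNAs and for 85.0% of those tested. Alternatives comprised other scalings, no filter on low counts, DESeq2 1.42.0, a replicate block, removal of the GC trend, fits of the ages compared alone and omission of each library; the fit without the 3 P14 libraries was chosen after seeing the data.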

Additional observations from a re-analysis of the deposited data

How the results depend on the processing

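All 10 members were called lower at P90 than at P1 in each alternative fit that gave all of them a value (9 of 9 with the GC trend removed, since miR-532-5p had no sequence), the fit without the 3 P14 libraries included. No member changed direction while called. Over the single members and comparisons, 972 alternative values kept their side of the threshold, 23 lost a call and 20 gained it. The 1 member called higher at P14 than at P5 became 3 with upper-quartile factors, 0 without the filter on low counts, 0 with the GC trend removed, 2 in a fit of those ages alone and 0 to 1 when single libraries were left out. For P14 versus P1 it became 0 with library totals alone, 3 with upper-quartile factors, 0 without the filter, 0 with the GC trend removed, 2 in the fit of those ages alone and 0 to 1 when single libraries were left out; the cause was not tested. The 3 members lower at P14 than at P5 became 2 to 4 when single libraries were left out. The 2 hairpins of the cluster with a change of arm ratio became 1 to 3 when single libraries were left out and 3 of the 3 hairpins with at least 10 counts on both arms in every library (miR-532 adjusted exact P = 0.0490). Same-numbered replicates did not deviate together (r from -0.347 to 0.271, over 0.1 in 7 of 18 pairs, and 2 of 12 libraries correlated best with their own number), so the numbers do not pair the samples. With the replicate block, the members called lower at P14 than at P5 went from 3 to 2 (miR-188-3p, Padj = 0.0598), and the hairpins with a change of arm ratio from 2 to 0 (adjusted exact P = 0.0525 for miR-501 and 0.109 for miR-362). MiR-188-3p and miR-500-5p had at most 59 and 316 counts in any library; the part of depth in their calls was not tested.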
